A study of Mus musculus with 4 samples.

Results

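Transcript levels of 10 heat shock protein and small chaperone genes were examined in CT26 cells, a mouse colon carcinoma line, by RNA-seq. The genes were chosen by name (Cryab, Hspb1, Hspb8, Hspa1a, Hspa1b, Hspa8, Hsph1, Hsp90aa1, Dnajb1 and Hsf1), and all 10 were found, each once, among the 55335 genes of the deposited table. The study has 4 libraries. CT26_102_R and CT26_CTL_R carry the labels FOSL2-KO and chemoradiotherapy, and CT26_102 and CT26_CTL carry the labels FOSL2-WT and PBS, with 2 libraries in each group. Genotype and treatment thus cannot be told apart. The titles also divide the libraries by stem, CT26_102 against CT26_CTL. The labels do not say what the stem or the suffix R stands for, and they give no dose, time after treatment or number of clones. The growth protocol calls the cells mesenchymal. The series' design text speaks of knockdown cells, whereas the genotype labels say knockout.

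Levels are given as FPKM, fragments scaled by transcript length and by mapped fragments, which can be set side by side between genes because they are per length. Depth was estimated, from how low FPKM values are spaced, at 21.88 to 26.71 M mapped fragments per library (M, the prefix mega). Fosl2 transcript was at 16.0 and 19.2 FPKM in CT26_102_R and CT26_CTL_R, against 9.35 and 12.7 FPKM in CT26_102 and CT26_CTL, so it did not follow the genotype label. By stem, Fosl2 was lower in CT26_102 than in CT26_CTL, both with suffix R and without it. The cell cycle inhibitor gene Cdkn1a had 359 and 377 FPKM in CT26_102_R and CT26_CTL_R, against 92.2 and 94.6 FPKM in CT26_102 and CT26_CTL. Of 10 colon epithelial markers, 4 reached an FPKM of 1 in any library. These were the keratin genes Krt18 (34.7 to 76.5 FPKM), Krt20 (24.5 to 36.8 FPKM) and Krt8 (up to 3.82 FPKM), and Lgals4 (up to 2.37 FPKM). The defining genes Epcam and Cdx2 were listed at 0 in all 4 libraries. All 8 markers of a mesenchymal state reached an FPKM of 1, with Vim between 503 and 782 FPKM, whereas none of the 6 T cell and none of the 4 endothelial markers did. Of 4 fibroblast markers, 2 reached it in any library, Col1a1 and Pdgfra (up to 1.57 FPKM), and Lum was at 0 throughout. Col1a1 was at 30.7 and 60.7 FPKM in CT26_102_R and CT26_102, against 17.3 and 21.8 FPKM in CT26_CTL_R and CT26_CTL. In bulk RNA, fewer cells of a type and less RNA per cell cannot be told apart.

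Molecular chaperones bind unfolded proteins. Small heat shock proteins (Cryab, Hspb1, Hspb8) hold them without using ATP and keep them from aggregating. HSP70 proteins (inducible Hspa1a and Hspa1b, constitutive Hspa8) fold them in cycles of ATP hydrolysis that are started by J-domain proteins such as Dnajb1 and reset by nucleotide exchange factors such as Hsph1. HSP90 (Hsp90aa1 encodes the cytosolic alpha form) completes the folding of kinases and steroid receptors. Hsf1 encodes the transcription factor that, on heat or proteotoxic stress, binds heat shock elements, which are inverted repeats of the letters GAA, and induces many of these genes.

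RefSeq promoter windows of GRCm38.p6, from 250 bases before to 50 bases after an annotated start, were matched for 6 of the 10 genes. No window was available for Cryab, Hspa8, Hsp90aa1 and Hsf1, so no motif was searched for them. For the 5 genes with a pair of adjoining heat shock element units, 1 window each is shown because they show which of the small chaperone, inducible HSP70 and HSP110 genes carry these letters. Capitals mark each match to GAANNTTC or TTCNNGAA. Both motifs read the same on either strand, and matches may overlap.
Hspb1 (chr5:135887669-135887968, plus strand): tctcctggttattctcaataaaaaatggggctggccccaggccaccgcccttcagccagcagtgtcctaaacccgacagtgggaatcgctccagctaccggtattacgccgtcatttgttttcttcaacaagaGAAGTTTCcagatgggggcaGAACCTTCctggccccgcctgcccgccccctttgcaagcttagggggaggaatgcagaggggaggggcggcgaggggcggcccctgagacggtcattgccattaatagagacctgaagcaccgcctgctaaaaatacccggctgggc
Hspb8 (chr5:116422815-116423114, minus strand): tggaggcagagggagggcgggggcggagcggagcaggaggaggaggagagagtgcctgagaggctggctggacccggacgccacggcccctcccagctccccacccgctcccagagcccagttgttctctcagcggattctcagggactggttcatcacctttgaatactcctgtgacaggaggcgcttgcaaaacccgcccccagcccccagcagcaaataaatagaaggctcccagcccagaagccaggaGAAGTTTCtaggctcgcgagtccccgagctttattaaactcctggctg
Hspa1a (chr17:34972107-34972406, minus strand): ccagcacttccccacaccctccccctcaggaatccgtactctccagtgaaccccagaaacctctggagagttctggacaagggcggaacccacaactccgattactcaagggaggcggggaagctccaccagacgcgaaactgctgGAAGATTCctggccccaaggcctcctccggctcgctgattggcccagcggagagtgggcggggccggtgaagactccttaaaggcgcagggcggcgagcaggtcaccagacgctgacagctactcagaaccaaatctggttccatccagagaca
Hspa1b (chr17:34959189-34959488, minus strand): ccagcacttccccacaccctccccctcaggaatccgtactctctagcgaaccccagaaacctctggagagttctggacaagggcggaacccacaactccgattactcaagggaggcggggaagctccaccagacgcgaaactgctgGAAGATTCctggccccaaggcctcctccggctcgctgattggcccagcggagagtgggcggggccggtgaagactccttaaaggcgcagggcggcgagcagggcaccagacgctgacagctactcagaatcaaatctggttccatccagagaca
Hsph1 (chr5:149636287-149636586, minus strand): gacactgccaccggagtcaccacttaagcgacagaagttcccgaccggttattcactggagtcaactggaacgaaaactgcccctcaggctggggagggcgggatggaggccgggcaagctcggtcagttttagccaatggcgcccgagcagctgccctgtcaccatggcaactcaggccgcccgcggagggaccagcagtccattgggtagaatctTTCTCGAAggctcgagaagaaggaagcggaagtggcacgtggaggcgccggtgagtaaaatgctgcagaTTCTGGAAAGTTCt
Such a pair was in windows of 5 of the 6 genes, against 15.1% of all 32851 windows. Hsph1 and Dnajb1 have 2 windows each, so counts here are per gene and the shares are per window. A run of 3 units (GAANNTTCNNGAA or its reverse, TTCNNGAANNTTC) was found in windows of 1 of the 6, Hsph1, against 0.603% of all windows. The Hspa1a and Hspa1b windows differ at 4 of 300 bases, and both carry their pair 104 bases upstream of the start. Hspb1 carries pairs 117 and 97 bases upstream, and the pair of Hspb8 lies within the transcribed bases. The run of 3 units in Hsph1 also lies there, from base 37 of the transcript in the window shown and base 16 from its other start. Both windows of Dnajb1 held no match to these letters. The AP-1 motif TGANTCA, the motif bound by FOSL2 and its partners, had no match in the windows of these 6 genes on either strand, and 7.81% of all windows hold one. With 6 genes, the lack of an AP-1 match lies close to that share, and Cryab and Hspa8 were not searched. All these matches describe letters in a window and not binding.

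**Figure D1:**
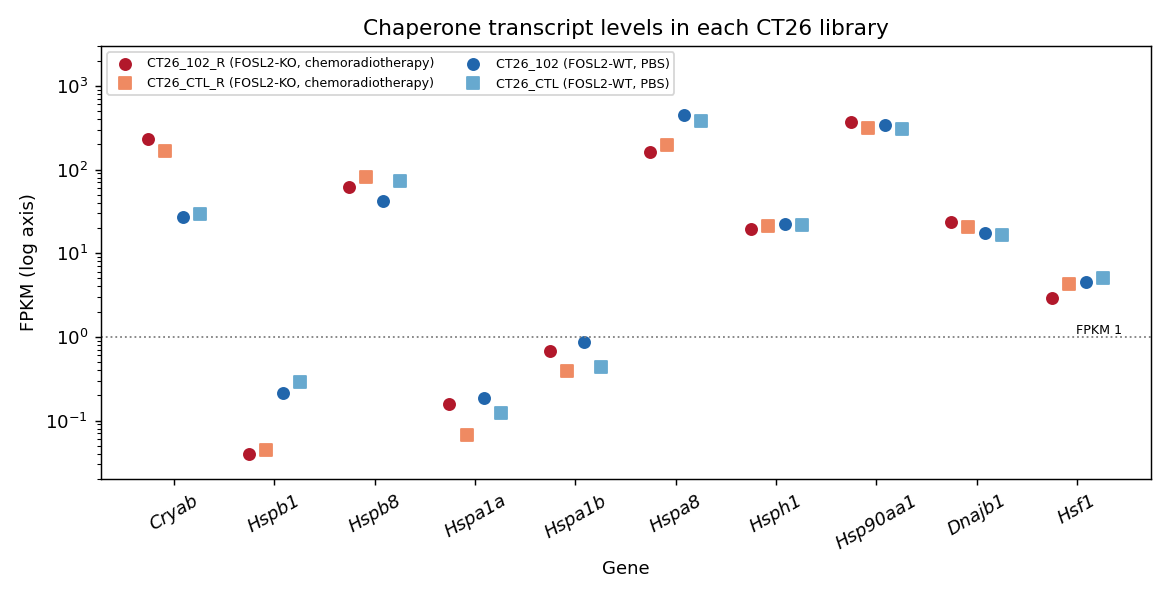
FPKM (log axis) of the 10 genes in each library, with circles for stem CT26_102 and squares for stem CT26_CTL, red shades for libraries labelled FOSL2-KO plus chemoradiotherapy and blue shades for FOSL2-WT plus PBS. Hspb1, Hspa1a and Hspa1b lie below an FPKM of 1 (dotted line) in every library, and Cryab is higher and Hspa8 lower in both red libraries.

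The comparison between the labelled groups asked which of these genes differ between cells labelled FOSL2-KO plus chemoradiotherapy and cells labelled FOSL2-WT plus PBS. Cryab rose and Hspa8 fell, and the other 5 tested genes did not pass. Differences were fitted on log2(FPKM + 1) across the 11955 genes that reached an FPKM of 1 in 2 or more libraries, with terms for the labelled group and the stem (limma, Benjamini-Hochberg adjustment over all these genes, threshold 0.05). Errors of differences are standard errors of this fit with 2 libraries on each side. For the labelled groups these are 1 library of each stem, not replicates of the same stem. Across all tested genes 12.9% passed (7.57% rose and 5.32% fell, a share of 58.7% higher among the passing genes, which was 48.1% with upper-quartile rescaling), and of the 10 chaperone genes 7 were tested, 1 of which rose and 1 fell. At an unadjusted p under 0.05 were 36.1% of all tested genes and 3 of the 7. The median log2 difference of the 7 was 0.06, and that of all tested genes was 0.00425. The fit with both terms has 1 residual degree of freedom, and when the stem was left out 0.00836% of the tested genes, which is 1 gene, and 0 of the 7 passed in limma (10.7% and 2 of the 7 at an unadjusted p under 0.05). For Cryab and Hspa8 the adjusted p without the stem is therefore given as well, and for the wider list of chaperone genes it is given as a range.

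Cryab encodes alpha-B crystallin, a small heat shock protein of the lens and of muscle that binds desmin and actin filaments. Its gene (ENSMUSG00000032060) lies on GRCm38 chromosome 9, 50751325 to 50756636, plus strand. Its level was 229 FPKM in CT26_102_R and 169 FPKM in CT26_CTL_R, against 27.2 FPKM in CT26_102 and 29.6 FPKM in CT26_CTL. Both libraries labelled FOSL2-KO plus chemoradiotherapy were thus far above both others, and the groups did not overlap. The ratio within the stem was 8.40 in CT26_102 and 5.70 in CT26_CTL. The log2 difference was 2.75 ± 0.16 (adjusted p = 0.0117, or 0.226 without the stem in the fit), number 13 from the top among the 11955 tested genes. By level, Cryab ranked 210 and 359 among all listed genes in CT26_102_R and CT26_CTL_R, against 1802 and 1818 in CT26_102 and CT26_CTL.

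Cryab overlaps Hspb2, a small heat shock protein gene that is read from the opposite strand, and 252 exonic bases of Cryab are annotated in both. Hspb2 was at 2.10 and 3.29 FPKM in CT26_102_R and CT26_CTL_R, against 0.654 and 0.619 FPKM in CT26_102 and CT26_CTL. It met the filter on low values only through the libraries where it was high, so its log2 difference of 1.16 ± 0.19 is a description. Whether the counting used strand is not given in the sources used here, so reads of the shared bases cannot be told apart between Cryab and Hspb2. A list of 6 muscle markers was examined beside Cryab because muscle is rich in small heat shock proteins. Its summed level was 20.8 and 15.4 FPKM in CT26_102_R and CT26_CTL_R, against 5.41 and 6.93 FPKM in CT26_102 and CT26_CTL, and 2 of the 6 genes reached an FPKM of 1 in any library. Of these, Des, which encodes desmin, was at 15.6 and 4.75 FPKM, against 1.31 and 0.965 FPKM. Tnnt2, which encodes cardiac troponin T, was at 3.94 and 10.5 FPKM, against 3.83 and 5.94 FPKM, while the creatine kinase gene Ckm stayed at or under 0.498 FPKM in all libraries. A list of 6 myeloid markers had a summed level of 119 and 91.0 FPKM against 24.9 and 42.6 FPKM, with 3 of the 6 at an FPKM of 1 in any library. Only Cd68 of these was higher with suffix R in both stems, at 63.9 and 86.4 FPKM, against 8.49 and 28.3 FPKM. Lyz2 was at 53.1 and 4.36 FPKM, against 15.02 and 13.1 FPKM, Csf1r at 2.0 and 0.158 FPKM, against 1.10 and 0.965 FPKM, and the defining gene Ptprc stayed at or under 0.0880 FPKM. The part of these levels in the Cryab result was not tested.

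The 5 tested genes whose centred log2(FPKM + 1) profile over the 4 libraries lay closest to that of Cryab, by Euclidean distance, were Gm28048, Bglap, Cd80, Mdm2 and Dcxr. Their distances were between 0.212 for Gm28048 and 0.546 for Dcxr. Gm28048 was at 7.91 and 5.65 FPKM in CT26_102_R and CT26_CTL_R, against 0 and 0.000214 FPKM in CT26_102 and CT26_CTL. Bglap was at 11.4 and 6.29 FPKM, against 0.172 and 0.0701 FPKM. Gm28048 and Bglap thus met the filter on low values only through the suffix R libraries. The size of their log2 difference, and so their closeness to Cryab, depends on the 1 added to each FPKM. Mdm2, which encodes the ubiquitin ligase of p53, was at 486 and 292 FPKM in CT26_102_R and CT26_CTL_R, against 47.2 and 38.5 FPKM in CT26_102 and CT26_CTL. With 4 libraries, such a likeness is a description of these samples.

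Hspb8 encodes a small heat shock protein that acts with the co-chaperone Bag3 in the autophagy of misfolded proteins (ENSMUSG00000041548, chromosome 5, 116408491 to 116422864, minus strand). Its level was 62.3 FPKM in CT26_102_R and 81.2 FPKM in CT26_CTL_R, against 42.3 FPKM in CT26_102 and 72.6 FPKM in CT26_CTL. The suffix R library was the higher of each stem, but the groups overlapped. The log2 difference of 0.35 ± 0.14 did not pass (adjusted p = 0.143). Bag3 had a similar size of difference, 0.32 ± 0.12 (adjusted p = 0.143), at 22.1 and 20.5 FPKM in CT26_102_R and CT26_CTL_R, against 17.2 and 16.6 FPKM in CT26_102 and CT26_CTL.

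Hspb1 encodes the small heat shock protein known as HSP27 in humans and HSP25 in mice (ENSMUSG00000004951, chromosome 5, 135887919 to 135889563, plus strand). It was nearly undetected, at 0.0402 and 0.0449 FPKM in CT26_102_R and CT26_CTL_R, against 0.214 and 0.287 FPKM in CT26_102 and CT26_CTL. By the depth estimate these levels amount to about 1 fragment in each suffix R library, against about 4.8 and 7.9 fragments in CT26_102 and CT26_CTL. The groups did not overlap, yet the gene was below the filter on low values. In the fit without that filter its log2 difference was -0.26 ± 0.06 (adjusted p = 0.183). Of its 50-base windows, 50.1% also occur in transcripts of other annotated genes.

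Within the small heat shock proteins the order of levels differed between the labelled groups. Cryab stood at 3.67 and 2.08 times the level of Hspb8 in CT26_102_R and CT26_CTL_R, against 0.644 and 0.408 times in CT26_102 and CT26_CTL. The summed level of Cryab, Hspb1 and Hspb8 was 291 and 249.9 FPKM, against 69.7 and 102.4 FPKM. These ratios and sums are descriptions of the libraries and were not tested.

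**Figure D2:**
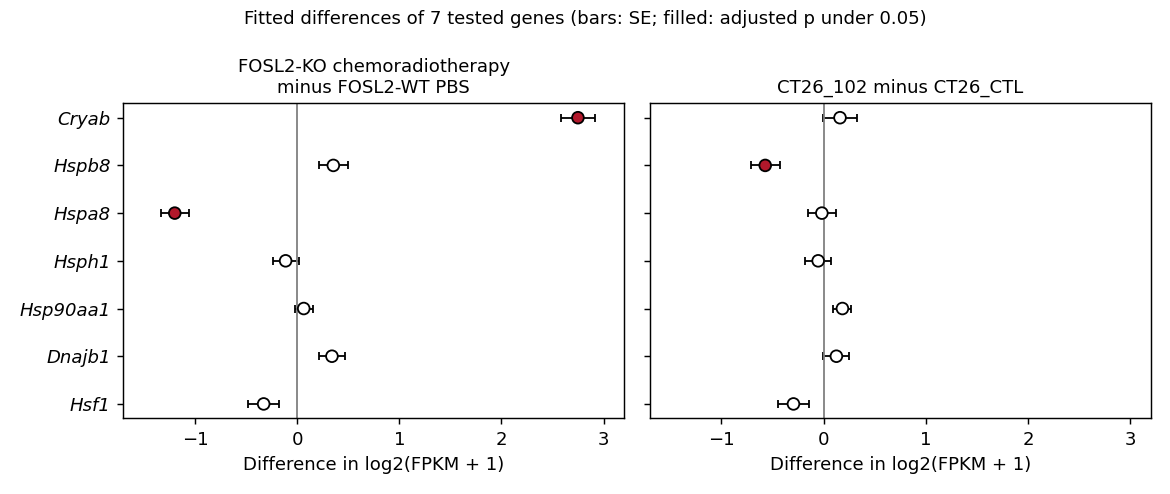
Fitted difference in log2(FPKM + 1) with its standard error for the 7 tested genes, between the labelled groups (left panel) and between the stems (right panel). Filled points passed the adjusted threshold of 0.05, which Cryab and Hspa8 did on the left and Hspb8 on the right.

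Hspa8 encodes HSC70, the constitutive cytosolic HSP70 that folds new proteins, uncoats clathrin vesicles and serves chaperone-mediated autophagy (ENSMUSG00000015656, chromosome 9, 40800984 to 40810087, plus strand). It was at 164 FPKM in CT26_102_R and 195 FPKM in CT26_CTL_R, against 444 FPKM in CT26_102 and 382 FPKM in CT26_CTL. Both libraries labelled FOSL2-KO plus chemoradiotherapy were below both others, at 0.370 and 0.510 times the level of their partner of the same stem. The log2 difference was -1.20 ± 0.14 (adjusted p = 0.0201, or 0.400 without the stem in the fit), number 77 from the bottom of the 11955 tested genes.

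Reads of Hspa8 are shared with copies. Of its 50-base windows, 39.4% occur in transcripts of 16 other genes. Gm15459, annotated as a processed pseudogene, was listed at 213 and 194 FPKM in CT26_102_R and CT26_CTL_R, against 640 and 454 FPKM in CT26_102 and CT26_CTL, which is above Hspa8 itself in CT26_102_R, CT26_102 and CT26_CTL. When Hspa8 was summed with the 4 measured genes that share at least 10% of its windows, weighting each by exonic length, the ratio within the stem was 0.359 in CT26_102 and 0.484 in CT26_CTL. Hspa8 made up between 57.7% and 64.6% of that sum. The lower level was therefore seen for the gene and its copies together, while how reads were split among them is not known.

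The inducible HSP70 genes Hspa1a and Hspa1b, neighbours on chromosome 17 whose products are the main HSP70 made on heat shock, were below an FPKM of 1 in all 4 libraries. Hspa1a (ENSMUSG00000091971, 34969190 to 34972156, minus strand) was at 0.160 and 0.0678 FPKM in CT26_102_R and CT26_CTL_R, against 0.188 and 0.122 FPKM in CT26_102 and CT26_CTL. Hspa1b (ENSMUSG00000090877, 34956436 to 34959238, minus strand) was at 0.681 and 0.393 FPKM in CT26_102_R and CT26_CTL_R, against 0.874 and 0.437 FPKM in CT26_102 and CT26_CTL. For each gene the suffix R library was the lower of its stem, and the groups overlapped. These values rest on about 4.4 to 12.2 fragments per library for Hspa1a and 24.1 to 53.7 for Hspa1b. In the fit without the filter on low values, neither passed (log2 difference -0.05 ± 0.05, adjusted p = 0.636 for Hspa1a, and -0.10 ± 0.14, adjusted p = 0.757 for Hspa1b). Hspa1b shares 62.3% of its 50-base windows with Hspa1a, so their separate levels are uncertain. Their promoter windows, shown above, hold a heat shock element pair at the same place.

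Dnajb1 encodes a J-domain protein that delivers substrates to HSP70 and is itself induced by heat (ENSMUSG00000005483, chromosome 8, 83608193 to 83612653, plus strand). It was at 23.5 and 20.4 FPKM in CT26_102_R and CT26_CTL_R, against 17.4 and 16.7 FPKM in CT26_102 and CT26_CTL. The groups did not overlap, with ratios of 1.35 and 1.22 within the stems, but the log2 difference of 0.34 ± 0.13 did not pass (adjusted p = 0.129). Hsph1 encodes HSP105 of the HSP110 family, a nucleotide exchange factor of HSP70 (ENSMUSG00000029657, chromosome 5, 149614287 to 149636376, minus strand). It was at 19.5 and 21.4 FPKM in CT26_102_R and CT26_CTL_R, against 22.4 and 22.0 FPKM in CT26_102 and CT26_CTL. The groups did not overlap, by a narrow margin. The log2 difference was -0.11 ± 0.13 (adjusted p = 0.556), a size below its standard error.

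Hsp90aa1, the gene of the stress-inducible cytosolic HSP90 (ENSMUSG00000021270, chromosome 12, 110690605 to 110702728, minus strand), was at 365 and 315 FPKM in CT26_102_R and CT26_CTL_R, against 343 and 307 FPKM in CT26_102 and CT26_CTL. The groups overlapped and the log2 difference was 0.06 ± 0.09 (adjusted p = 0.626), the smallest in size among the 7 tested genes. Of its 50-base windows 47.5% are shared with other genes, mainly the pseudogene Gm12346, which was at 67.3 and 56.9 FPKM, against 65.3 and 61.0 FPKM. Hsf1 (ENSMUSG00000022556, chromosome 15, 76477422 to 76501913, plus strand) was at 2.95 and 4.34 FPKM in CT26_102_R and CT26_CTL_R, against 4.47 and 5.08 FPKM in CT26_102 and CT26_CTL. Its values did not overlap between the groups, but the log2 difference of -0.33 ± 0.15 did not pass (adjusted p = 0.182). The activity of HSF1 is set largely on the protein, which these data do not measure.

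Of the 7 tested genes, 5 had values that did not overlap between the labelled groups, beside 43.3% of all tested genes. The sign of the difference was the same in both stems for all 10 genes, 4 higher and 6 lower in the suffix R library, beside 77.3% of all tested genes with the same sign in both stems. The 3 genes below the filter are all among the 6.

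**Figure D3:**
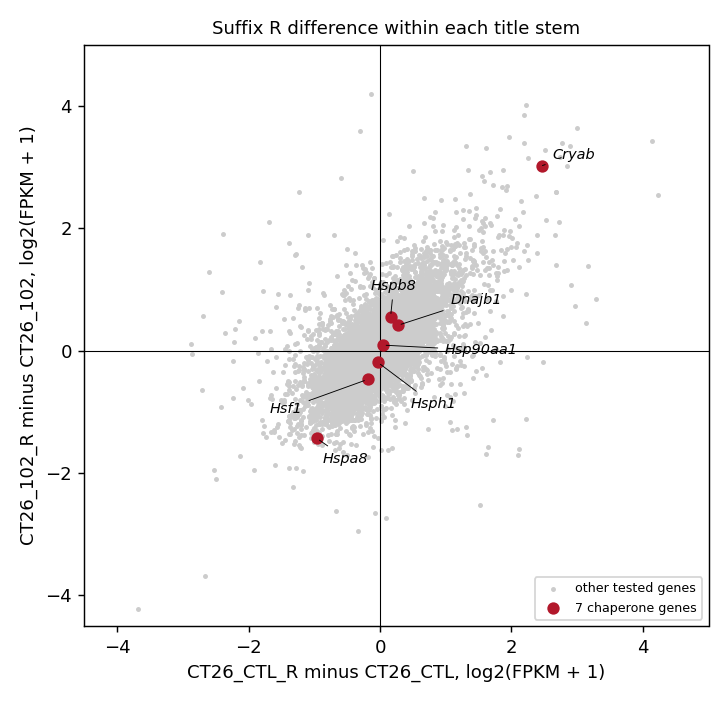
Difference in log2(FPKM + 1) between the suffix R library and its partner in stem CT26_CTL (horizontal axis) and in stem CT26_102 (vertical axis), for 11955 tested genes in grey and the 7 tested chaperone genes in red. Cryab lies near the upper right edge at 2.47 and 3.03, Hspa8 in the lower left at -0.97 and -1.43, and the other 5 lie near the origin.

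The summed level of the 10 genes as listed, without their copies, was close in all libraries, while its make-up was not. The sum was 867 and 807 FPKM in CT26_102_R and CT26_CTL_R, against 901 and 836 FPKM in CT26_102 and CT26_CTL. These sums were between 0.200% and 0.259% of all FPKM. Hspa8 and Hsp90aa1 together made up 61.0% and 63.3% of the sum in CT26_102_R and CT26_CTL_R, against 87.2% and 82.4% in CT26_102 and CT26_CTL. Cryab made up 26.4% and 20.9%, against 3.02% and 3.54%. The level of Cryab relative to Hspa8 was 1.39 and 0.865, against 0.0614 and 0.0774. Hspa8 stood at 0.449 and 0.618 times Hsp90aa1, against 1.29 and 1.24 times. Copies are outside these sums and ratios, and the Hspa8 copy Gm15459 alone was at 213 and 194 FPKM, against 640 and 454 FPKM. Hspa8 made up between 57.7% and 64.6% of the length-weighted sum with its copies. The closeness of the sums therefore holds only for the 10 genes as listed, and the ratios to Hspa8 would also differ with its copies counted.

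**Figure D4:**
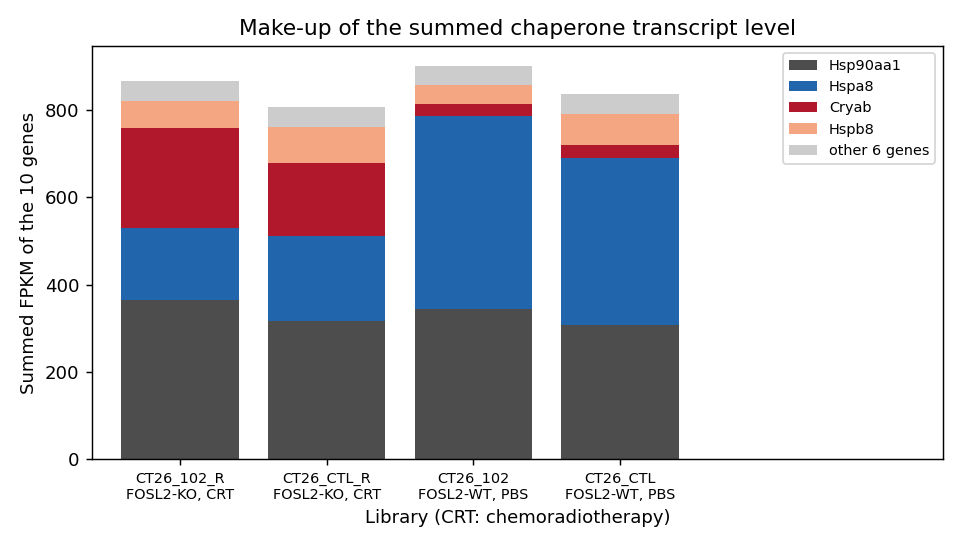
Summed FPKM of the 10 genes in each library, stacked by gene, with the libraries labelled FOSL2-KO plus chemoradiotherapy (CRT) on the left. The height is between 807 and 901 FPKM, with a larger Cryab segment and a smaller Hspa8 segment in both libraries on the left. Copies of Hspa8 and Hsp90aa1 are not counted in the bars.

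The comparison between stems asked which genes differ between CT26_102 and CT26_CTL. Hspb8 was lower in stem CT26_102, at 62.3 and 42.3 FPKM in CT26_102_R and CT26_102, against 81.2 and 72.6 FPKM in CT26_CTL_R and CT26_CTL. All values of stem CT26_102 were below those of CT26_CTL, at 0.767 times with suffix R and 0.583 times without it. The log2 difference was -0.57 ± 0.14 (adjusted p = 0.0465, or 0.356 without the labelled group in the fit). That p lies close to the threshold, and it was 0.0512 with a pseudocount of 0.1, 0.0528 with one of 0.5 and 0.0635 without the mean-variance trend. Across all tested genes 21.9% passed between the stems, 12.5% higher and 9.44% lower in CT26_102 (median-of-ratios rescaling turned this balance, with 1190 genes higher and 1312 lower), and of the 7 tested chaperone genes 1 was lower and 6 did not pass (40.4% and 1 of the 7 at an unadjusted p under 0.05). Without the labelled group in the fit, 0.284% of the tested genes and 0 of the 7 passed (16.7% and 0 of the 7 unadjusted). The median log2 difference of the 7 was -0.02, and that of all tested genes was 0.05. Mitochondrially encoded genes took 12.3% and 12.0% of all FPKM in CT26_102_R and CT26_102, against 9.09% and 9.37% in CT26_CTL_R and CT26_CTL, and their part in the Hspb8 result was not tested.

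The values of 2 of the 7 tested genes, Hspb8 and Hsp90aa1, did not overlap between the stems, beside 48.9% of all tested genes. Hsp90aa1 was at 365 and 343 FPKM in CT26_102_R and CT26_102, against 315 and 307 FPKM in CT26_CTL_R and CT26_CTL, a log2 difference of 0.18 ± 0.09 that did not pass (adjusted p = 0.183). Both inducible HSP70 genes, below the filter, were higher in stem CT26_102 with and without suffix R. Hspa1a was at 0.160 and 0.188 FPKM in CT26_102_R and CT26_102, against 0.0678 and 0.122 FPKM in CT26_CTL_R and CT26_CTL, without a call in the fit that kept such genes (adjusted p = 0.377). Hspa1b was at 0.681 and 0.874 FPKM in CT26_102_R and CT26_102, against 0.393 and 0.437 FPKM in CT26_CTL_R and CT26_CTL. These are ratios of 1.73 and 2.0, also without a call (adjusted p = 0.309). Cryab (0.16 ± 0.16, adjusted p = 0.503), Hspa8 (-0.02 ± 0.14, adjusted p = 0.943), Hsph1 (-0.05 ± 0.13, adjusted p = 0.787) and Dnajb1 (0.13 ± 0.13, adjusted p = 0.502) differed between the stems by about their standard error or less. For Hsf1 the log2 difference was -0.29 ± 0.15 (adjusted p = 0.204).

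Another 99 genes of the chaperone network were listed by role, of which 91 were tested, and between the labelled groups 10 rose, 7 fell and 74 did not pass. These are 11.0% and 7.69% of the listed genes tested, beside 7.57% and 5.32% of all tested genes, and the median log2 difference of the list was 0.03. Without the stem in the fit, 0 of these 17 calls remained in limma (adjusted p between 0.400 and 0.858, with 11 of the 17 at an unadjusted p under 0.05). Hspb2 and Hspa12a, counted among the 17, met the filter on low values only through the group where they were high. Of 20 inducible HSF1 target genes, 2 rose, 3 fell and 15 did not pass, with a median of 0.05. Those that rose were Ier5, an immediate early gene whose product acts on HSF1, at 32.6 and 57.6 FPKM in CT26_102_R and CT26_CTL_R, against 10.1 and 18.7 FPKM in CT26_102 and CT26_CTL (1.58 ± 0.12, adjusted p = 0.0144), and Hmox1, heme oxygenase, which NRF2 also induces, at 127 and 156 FPKM, against 41.2 and 90.9 FPKM (1.19 ± 0.21, adjusted p = 0.0373). Those that fell were Fkbp4, a peptidyl-prolyl isomerase bound to HSP90, Serpinh1, the collagen chaperone, and Hsp90ab1. The list holds Hsp90ab1 although it is the constitutive cytosolic HSP90. Fkbp4 was at 73.0 and 72.3 FPKM, against 122 and 125 FPKM (-0.76 ± 0.11, adjusted p = 0.0252).

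Of the other 3 HSP90 genes, 2 fell and 1 did not pass, beside 5.32% of all tested genes that fell. Hsp90ab1, the constitutive cytosolic HSP90, was at 768 and 929 FPKM in CT26_102_R and CT26_CTL_R, against 1179 and 1162 FPKM in CT26_102 and CT26_CTL (-0.47 ± 0.10, adjusted p = 0.0452). Hsp90b1, the HSP90 of the endoplasmic reticulum, was at 453.9 and 239 FPKM, against 775 and 416 FPKM (-0.79 ± 0.08, adjusted p = 0.0195). The mitochondrial Trap1 did not pass, at 49.8 and 38.6 FPKM, against 70.1 and 50.8 FPKM (-0.44 ± 0.12, adjusted p = 0.0671).

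Of 10 other HSP70 and HSP110 genes tested, 1 passed and 9 did not, beside 12.9% of all tested genes that passed, and their median was -0.29. The passing gene was Hspa12a, a distant HSP70 relative, at 0.483 and 0.941 FPKM in CT26_102_R and CT26_CTL_R, against 4.41 and 4.89 FPKM in CT26_102 and CT26_CTL (-1.73 ± 0.16). It met the filter on low values only through CT26_102 and CT26_CTL, where it was high, so its difference is a description. Of the other 6 small heat shock protein genes 3 were tested, and Hspb2 alone passed, which is likewise a description because of the filter. Among 20 J-domain genes, 2 rose and 1 fell, which is 10% and 5%, beside 7.57% and 5.32% of all tested genes. Dnajc9, whose product also binds histones, was at 54.1 and 41.3 FPKM, against 26.2 and 22.2 FPKM (0.94 ± 0.12, adjusted p = 0.0240), Dnajb5 at 4.32 and 3.59 FPKM, against 1.68 and 1.98 FPKM (0.81 ± 0.16, adjusted p = 0.0434), and Dnajc10, a reductase of the endoplasmic reticulum, at 33.9 and 26.5 FPKM, against 51.3 and 38.4 FPKM (-0.55 ± 0.12, adjusted p = 0.0474).

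None of 12 nucleotide exchange and adaptor co-chaperones of HSP70 passed between the labelled groups in limma's adjusted test, beside 12.9% of all tested genes. Their median was 0.13. Of 17 HSP90 co-chaperones, 1 rose and 2 fell, Fkbp4 and Fkbp5, which is 5.88% and 11.8%, beside 7.57% and 5.32% of all tested genes. Unc45a, the myosin chaperone, was at 8.46 and 7.08 FPKM, against 4.85 and 4.37 FPKM (0.64 ± 0.13, adjusted p = 0.0455), and Fkbp5, an isomerase that restrains steroid receptors, fell to 34.9 and 5.59 FPKM, against 61.5 and 8.87 FPKM (-0.69 ± 0.13, adjusted p = 0.0413). Of 16 chaperonin and prefoldin genes, the prefoldin subunits Pfdn4 and Pfdn1 rose and 14 genes did not pass. The share that rose was 12.5%, beside 7.57% of all tested genes. Pfdn4 was at 17.1 and 21.2 FPKM, against 11.1 and 12.3 FPKM (0.66 ± 0.13, adjusted p = 0.0428). Of 3 tested heat shock factor genes and modulators, 2 rose, beside 7.57% of all tested genes. Hsf4 rose to 15.1 and 17.2 FPKM, against 6.61 and 9.20 FPKM (0.96 ± 0.14, adjusted p = 0.0275). Hsbp1, which encodes a protein that binds HSF1 and restrains it, rose to 52.8 and 68.4 FPKM, against 32.5 and 39.2 FPKM (0.73 ± 0.12, adjusted p = 0.0312). Hsf2 did not pass (-0.15 ± 0.16, adjusted p = 0.531).

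**Figure D5:**
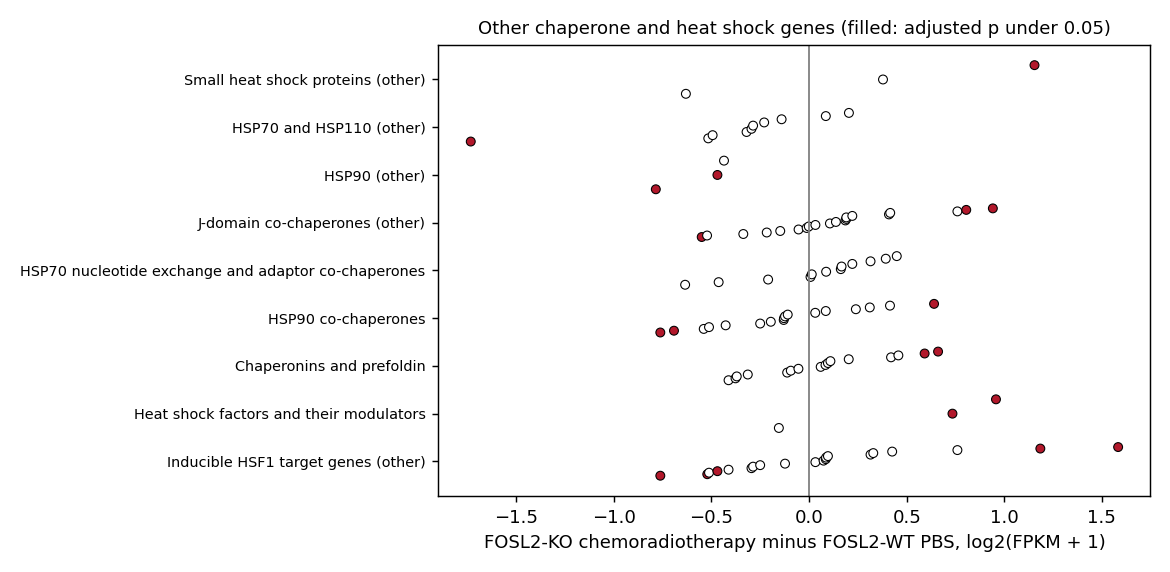
Difference in log2(FPKM + 1) between the labelled groups for each tested gene of 9 chaperone network lists, 1 point per gene spread down the page by value within its list. Filled points passed the adjusted threshold of 0.05, with 10 genes to the right of 0 (higher with FOSL2-KO plus chemoradiotherapy labels) and 7 to its left when each gene is counted once.

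Between the stems, 6 of the 91 listed genes were higher and 8 lower in CT26_102, which is 6.59% and 8.79%, beside 12.5% and 9.44% of all tested genes. Without the labelled group in the fit, 1 of these 14 calls remained, Clu, and the adjusted p of the 14 in limma lay between 0.0359 and 0.620. Fkbp5 was at 34.9 and 61.5 FPKM in CT26_102_R and CT26_102, against 5.59 and 8.87 FPKM in CT26_CTL_R and CT26_CTL (2.55 ± 0.13, adjusted p = 0.00325). Clu, which encodes the secreted chaperone clusterin, was at 25.0 and 22.1 FPKM in stem CT26_102, against 3.52 and 3.51 FPKM in stem CT26_CTL (2.44 ± 0.13, adjusted p = 0.00338). Hyou1, Dnajc3 and Hsp90b1 were also higher in CT26_102, with log2 differences of 1.03 ± 0.13, 1.09 ± 0.14 and 0.91 ± 0.08 (adjusted p = 0.0131, 0.0137 and 0.00784). Those lower in CT26_102 included the chaperonin subunit Cct5 at 118 and 149 FPKM, against 196 and 263 FPKM (-0.77 ± 0.10, adjusted p = 0.0137). St13, a co-chaperone of HSP70, was at 26.0 and 26.4 FPKM, against 44.2 and 43.1 FPKM (-0.71 ± 0.12, adjusted p = 0.0212). Vbp1, Dnajb6, Ier5 and Pfdn1 were lower too, with log2 differences of -0.84 ± 0.12, -0.83 ± 0.14, -0.81 ± 0.12 and -0.73 ± 0.10 (adjusted p = 0.0168, 0.0223, 0.0177 and 0.0154 in limma). Of the 12 HSP70 nucleotide exchange and adaptor genes, 1 was higher (Bag2) and 3 were lower (St13, Grpel2 and Stub1).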

How the data were processed

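Gene expression was measured by RNA-seq of mRNA libraries from 4 samples of CT26 cells. The authors deposited 1 value per gene and library, FPKM by the table's name, and the libraries were made with the SMARTER mRNA-Seq kit, per the labels' protocols. The submitters' processing notes name the builds GRCm38 and mm10. Neither the aligner nor the quantification tool nor the strand setting is given in the sources used here. Positions and exonic lengths come from GENCODE M21 (GRCm38), which holds 99.67% of the listed genes, and promoter windows from RefSeq. Depth was estimated as the value that put most low FPKM values of genes of at least 300 bases at 1 fragment; between 24.19% and 26.46% of values below 5 fragments were then whole within 0.02, so depths are approximate and counting intervals were not computed.

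Values were analysed as log2(FPKM + 1), which understates folds of low genes, with no further scaling, in R 4.3.3 with limma 3.58.1 (eBayes with trend, 4.01 prior degrees of freedom), with terms for labelled group and title stem. The titles, not replicate numbers, pair the libraries by stem. The stem difference without and with suffix R had a Pearson correlation of 0.723 across the 11955 tested genes, which are not independent. Each pairing of stem and suffix has 1 library, so the fit holds no replicates of the same stem and suffix. Its 1 residual degree of freedom is the gap between the suffix R differences of the stems, and the prior degrees of freedom borrow from other genes. The p-values thus treat the stems as replicates for the labelled groups, and the labelled groups as replicates for the stems. Whether the libraries are from separate cultures is not labelled, and the p-values then cover only the spread among these samples, possibly a technical one. An exact two-sided permutation test of 2 against 2 cannot go below p = 0.333 and was not run. The members, lists and tests were chosen with earlier results of these data known. All 10 members are named, and from each list up to 4 passing genes per comparison by size; Bag3, Trap1 and Hsf2 were named after their values were seen.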

Additional observations from a re-analysis of the deposited data

Results flagged for a closer look

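For 3 of the 10 genes the stem difference had opposite signs in the labelled groups, with 1 library on each side, so the difference between them was not tested. For Cryab, CT26_102 minus CT26_CTL was 0.44 with suffix R and -0.12 without it on the log2(FPKM + 1) scale, a gap of 0.55. For Hspa8 these values were -0.25 and 0.21, a gap of -0.46. For Hsph1 they were -0.13 and 0.02, a gap of -0.15. The stem difference passed for none of the 3, whose adjusted p in limma were 0.503, 0.943 and 0.787.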

How the results depend on the processing

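Both calls between the labelled groups, Cryab and Hspa8, held under upper-quartile and median-of-ratios rescaling, pseudocounts of 0.1 and 0.5, an FPKM filter of 5 and no mean-variance trend, 6 of 12 tested settings each, with adjusted p between 0.00256 and 0.226 for Cryab and between 0.00744 and 0.400 for Hspa8 over the settings that kept all libraries. With no filter on low values 0 of 27670 genes passed in limma in either comparison (4937 between groups and 5802 between stems at an unadjusted p under 0.05), so 0 of the 10 genes did (4 and 1 unadjusted). Without the replicate block (the second term), 1 gene passed between groups and 34 between stems, and 0 of the chaperone genes in either (2 and 0 unadjusted). The number called between stems was also 0 with pseudocounts of 0.1 and 0.5 and with no trend (1 unadjusted in each), since Hspb8 lies at the threshold. Leaving out each library in turn without the replicate block, where the lone library is assumed to vary like the others, gave 2 to 11 genes between groups and 0 to 16 between stems, and 0 of the chaperone genes. The log2 differences then lay between 2.47 and 3.03 for Cryab and between -1.43 and -0.97 for Hspa8 between groups, and between -0.85 and -0.30 for Hspb8 between stems (-0.57 with all libraries, and -0.30 without CT26_102), counting also the fits with both terms, which leave no test.

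Leaving out 1 library turned the sign of some uncalled differences. Between groups these were Hsp90aa1 (-0.041 to 0.17) and Hspb8 (-0.028 to 0.74, negative without CT26_102). Between stems these were Cryab (-1.35 to 1.67), Hspa8 (-0.73 to 0.70), Hsph1 (-0.15 to 0.041) and Dnajb1 (-0.081 to 0.33). Without the second term such fits mix stem and suffix by their construction. With both terms, which leave no test, the stem difference also turned sign for Cryab (-0.12 to 0.44), Hspa8 (-0.25 to 0.21) and Hsph1 (-0.13 to 0.022). Dnajb1 kept its sign there (0.053 to 0.20). With upper-quartile rescaling 48.1% of genes called between groups were higher, against 58.7% as reported. Summing near-identical copies, chosen after seeing the data, gave log2 ratios with no pseudocount. They were -1.26 for Hspa8, 0.054 for Hsp90aa1 and -0.31 for Hspa1a with Hspa1b between groups, and 0.086, 0.19 and 0.90 between stems. Hspa1a made up between 15.4% and 22.9% of its sum with Hspa1b. Alone, Hspa1a had -0.05 ± 0.05 between groups on the log2(FPKM + 1) scale. Depth limits Hspb1 and Hspa1a, which rest on at most 12.2 fragments per library.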
